A study of Homo sapiens with 12 samples.

Results

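The 10 genes described here are the AP-1, EGR and IER immediate early genes FOS, FOSB, FOSL1, FOSL2, JUN, JUNB, JUND, EGR1, IER2 and IER3. They were chosen by gene name, and each was found once among the 58676 genes of the deposited table. The 12 RNA sequencing libraries came from A549, a long-established line of human lung carcinoma cells. The lines were a control line (genotype Control1) and 2 lines with a knockout of NFE2L1 (NFE2L1 KO1 and NFE2L1 KO2). The NFE2L1 protein switches on genes for proteasome subunits. Each line was given DMSO vehicle or the proteasome inhibitor bortezomib (200 nM, 4 h), which makes 6 groups of 2 libraries. The labels name no guide, deleted exon or clonal origin for the knockout lines, so an effect of the knockout and any other difference between 1 control line and 2 knockout lines cannot be told apart. Titles of knockout libraries end in R1 or R2, whereas a control group has an R2 library and an unnumbered one.

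AP-1 is a dimer of basic leucine zipper proteins. A Jun protein (JUN, JUNB or JUND) pairs with another Jun protein or with a Fos protein (FOS, FOSB, FOSL1 or FOSL2), and the dimer binds short DNA elements in many promoters and enhancers. FOS and EGR1 are textbook immediate early genes: growth factors and stress switch them on within minutes through kinases that act on SRF and ETS factors, and their mRNAs decay quickly. Several of these proteins are short-lived and are cleared by the proteasome. Bulk libraries do not separate fewer cells with a transcript from less transcript per cell, which holds for every value below.

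The libraries held 13211608 to 23819258 reads assigned to genes. Mitochondrially encoded genes took 12.31% to 19.29% of reads in the 6 R2 libraries and 5.44% to 6.8% in the other 6, so the libraries stand apart by suffix. The R2-minus-partner differences of all tested genes were correlated between groups (r 0.696 to 0.89 across genes over 15 pairs of groups, median 0.811), and results are therefore given also with the suffix as a replicate block. Nothing in the labels says that the libraries of a group came from separate cultures, so p-values measure the spread between these libraries. NFE2L1 itself was at 72.7 to 189 FPKM in the 4 control libraries and at 8.45 to 50.8 FPKM in the 8 knockout libraries, which do not overlap. The epithelial keratins KRT8, KRT18 and KRT7 were at 111.5 FPKM or more and the A549-typical AKR1B10 at 545 FPKM or more in every library. The epithelial markers EPCAM (1.25 to 10.6 FPKM) and CDH1 (1.42 to 9.53) were low and overlapped the range of COL1A1 (1.42 to 23.3). Of the other A549-typical genes, AKR1C1 was at 6.23 to 54.3 FPKM, AKR1C2 at 62.1 or more and NQO1 at 99.3 or more. Of 6 markers of other cells, PTPRC, CD3E, PECAM1 and ALB reached at most 0.0602 FPKM and COL1A2 at most 0.408. The summed level of those 6 was 1.87 to 5.57 FPKM in control vehicle, 6.11 to 10.7 in control bortezomib, 1.59 to 1.67 and 7.62 to 19.2 in KO1, and 3.68 to 4.74 and 11.3 to 23.6 in KO2, nearly all of it from the collagen gene COL1A1 (bortezomib log2 fold change 1.77 over the 3 lines, limma adjusted p 0.00623). Its part in the results was not tested.

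The members differed widely in level in these cells. FPKM is the number of fragments per kilobase of gene, scaled to the library's assigned reads, so levels can be set side by side per length. In the 6 vehicle libraries IER3, a stress-induced gene linked to survival signalling, had the highest median (32.9, 50.8 and 77.7 FPKM as lowest, median and highest). FOSL1, which encodes the Fos protein Fra-1, followed at 22.9, 35.3 and 82.3 FPKM. The order of IER3 and FOSL1 differed by suffix. FOSL1 was the higher in the R1 vehicle libraries of KO1 (82.3 against 47.3 FPKM) and KO2 (53.5 against 49.1). It was also higher in the unnumbered control vehicle library (40.8 against 32.9), where JUNB (40.5) and FOSL2 (35.9) exceeded IER3 too. In each R2 vehicle library IER3 was above FOSL1. JUND (median 29.2), FOSL2 (22.7), JUNB (21.1) and JUN (21) had ranges that overlap one another, and their order was not resolved. IER2, a nuclear immediate early protein, was at 5.17 to 9.92 FPKM with a median of 8.99, below the lowest value of each of those genes. The classical inducible genes were far below. FOS was at 0.22 to 0.801, EGR1 at 0.0511 to 0.436 and FOSB at 0.0385 to 0.143 FPKM in vehicle. Of the summed Fos-family FPKM, FOS and FOSB together made up 0.46% to 2.83% over the 12 libraries, FOSL1 52.97% to 76.72% and FOSL2 22.4% to 46.57%. FOSL1 had the largest share of the 4 in every library. This order depends on the deposited gene lengths, 1887 bases for FOSL1 and 7157 for FOSL2, since FOSL2 had more reads than FOSL1 in every library.

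**Figure D1:**
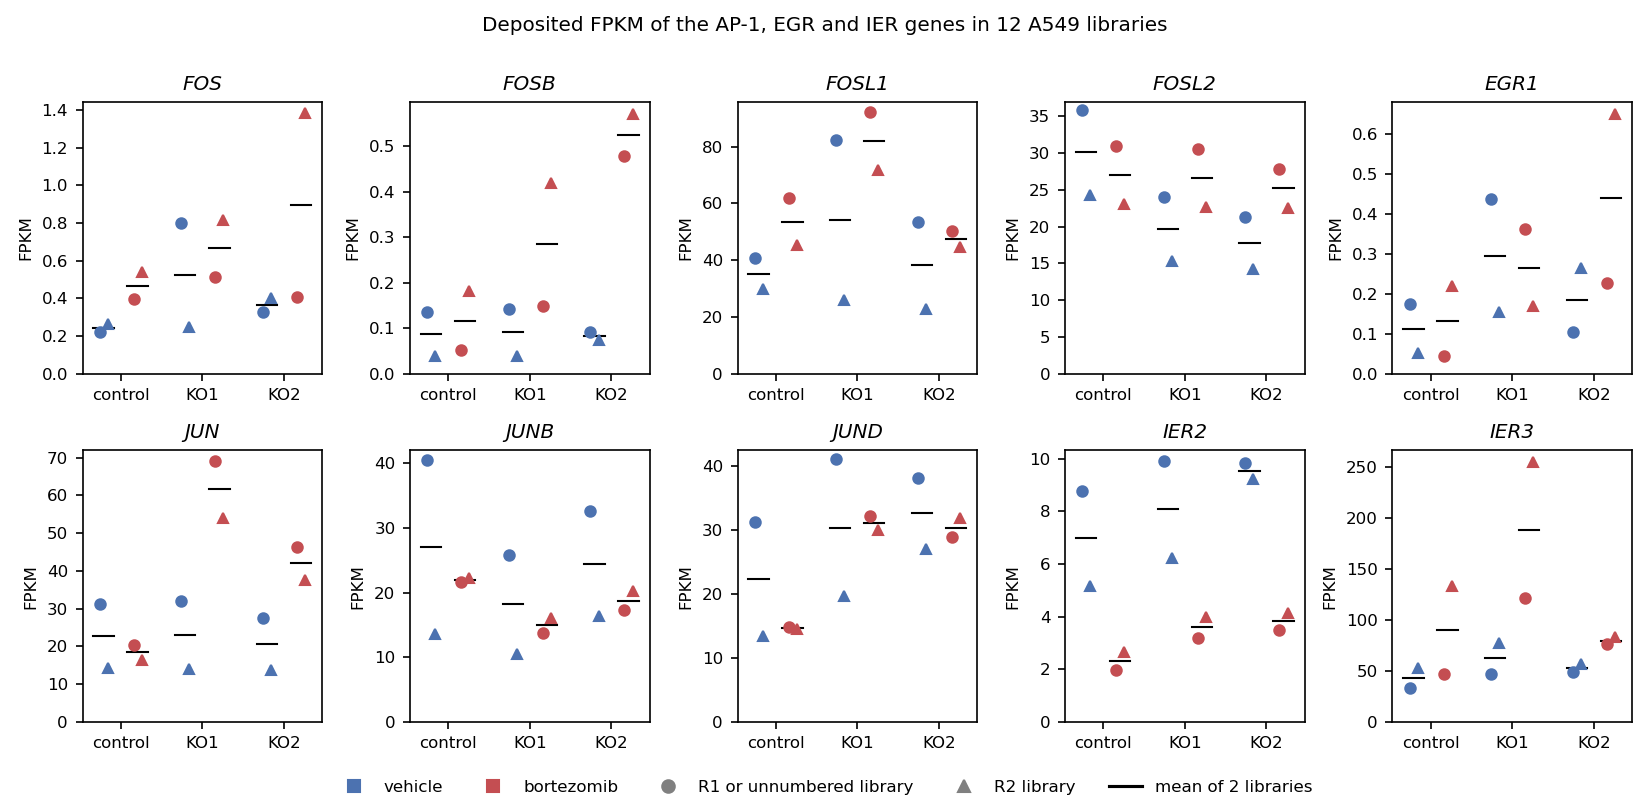
FPKM (vertical axis, linear from 0, own scale per gene) of the 10 genes in 3 lines, blue for vehicle and red for bortezomib, circles for R1 or unnumbered and triangles for R2 libraries, with a bar at the mean of 2 libraries. FOS, FOSB and EGR1 stay at or under 1.38 FPKM, IER2 is lower in all red points, and the red JUN points of KO1 and KO2 lie above every other JUN point.

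FOS, FOSB and EGR1 had a mean FPKM under 1 over the 12 libraries and did not pass the filter, so 7 of the 10 members were tested. Their depth was small, at 15 to 99 reads per library for FOS, 4 to 70 for FOSB and 2 to 45 for EGR1. EGR1 had 3 reads or fewer in the control vehicle R2 library and the unnumbered control bortezomib library, and 3 reads is the smallest count read here as a level. FOS (ENSG00000170345, GRCh38 chromosome 14, 75278774 to 75282230, plus strand; positions are as deposited) had 0.22 and 0.264 FPKM in control vehicle, 0.395 and 0.541 in control bortezomib, 0.801 and 0.249 in KO1 vehicle, 0.514 and 0.818 in KO1 bortezomib, 0.33 and 0.401 in KO2 vehicle, and 0.41 and 1.38 in KO2 bortezomib. The unnumbered or R1 library is given before the R2 library here and in all lists of values that follow. FOS was higher with bortezomib in 5 of 6 pairs of the same line and suffix, and the vehicle and bortezomib libraries overlapped in KO1 and not in the other lines. FOSB (ENSG00000125740, chromosome 19, 45467995 to 45475179, plus strand) went from 0.0919 and 0.0748 to 0.478 and 0.571 FPKM in KO2, from 0.143 and 0.0388 to 0.15 and 0.42 in KO1, and from 0.136 and 0.0385 to 0.0512 and 0.182 in the control line. When all genes with a value above 0 were tested, FOSB had a bortezomib log2 fold change of 0.25 over the 3 lines (SE 0.07, limma adjusted p 0.0787), FOS 0.27 (SE 0.16, limma adjusted p 0.467) and EGR1 0.09 (SE 0.10, limma adjusted p 0.683). None passed the threshold of 0.05. EGR1, a zinc finger factor (ENSG00000120738, chromosome 5, 138465490 to 138469315, plus strand), had 0.174 and 0.0511 FPKM in control vehicle and 0.0453 and 0.22 in control bortezomib. It had 0.436 and 0.154 against 0.362 and 0.169 in KO1, and 0.103 and 0.265 against 0.228 and 0.649 in KO2, and the treatments overlap in every line. FOSB lies opposite ERCC1, and because no source here says whether counting used strand, reads of this pair cannot be told apart.

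The response to bortezomib was compared within each line and over the 3 lines. Over the 3 lines 1 of the 7 tested members was called, IER2, which fell, where 11.6% of all 12194 tested genes were called (limma adjusted p under 0.05, no block). With the replicate block 5 of 7 were called, 4 higher (IER3, JUN, FOSL1 and FOSL2) and 1 lower (IER2), where 54.9% of all genes were called. The median log2 fold change of the 7 was 0.27 against -0.01 for all genes. Within single lines no member was called without the block, where 0.467% of genes were called for control, 0.238% for KO1 and 0.32% for KO2, and 1, 3 and 1 of the 7 members had an unadjusted p under 0.05. With the block 2 of 7 were called in the control line (IER2 lower, IER3 higher), 4 in KO1 (IER2 lower, JUN, IER3 and FOSL2 higher) and 3 in KO2 (IER2 lower, JUN and FOSL2 higher), against 32.4%, 27.7% and 27% of genes. These counts rest on 7 genes, so the members are described singly. When each of the 12 libraries was left out of the fit with the block in turn, which was added after seeing the data, the calls of IER2, IER3 and JUN over the 3 lines were kept in all 12 fits. Those of FOSL1 and FOSL2 were each lost in 6 of the 12.

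IER2 was the member that fell in every pair. Its FPKM was 8.77 and 5.17 in control vehicle and 1.99 and 2.66 in control bortezomib, 9.92 and 6.24 against 3.18 and 4 in KO1, and 9.82 and 9.21 against 3.49 and 4.16 in KO2. All 6 bortezomib libraries lie below all 6 vehicle libraries. Within a line and suffix the bortezomib value was 0.227 to 0.641 times the vehicle value. The log2 fold change over the 3 lines was -1.11 (SE 0.18, limma adjusted p 0.00537, and 0.00025 with the block). In single lines it was -1.23, -0.96 and -1.13 (SE 0.32) for the control line, KO1 and KO2, and the limma adjusted p was 0.131, 0.325 and 0.208. The block brought these to 0.00661, 0.0223 and 0.0122. Leaving out each library in turn kept the adjusted p over the 3 lines between 0.00677 and 0.0229. Fitted apart, a choice made after seeing the data, it was -0.76 in the R2 libraries and -1.45 in the others. Such a fit of 1 replicate set holds 1 library per group. Its p-values, given below for other members, therefore measure how far the lines differ in response and not the spread between replicates. With the block, the call in the control line was lost without either unnumbered control library (log2 fold change -0.75, highest adjusted p 0.114). It was lost in KO1 without the R1 vehicle library or either bortezomib library (highest 0.167), and in KO2 without either vehicle library or the R1 bortezomib library (highest 0.091). An antisense gene, AC011446.2, overlaps IER2 (ENSG00000160888, chromosome 19, 13150415 to 13154908, plus strand).

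IER3 was higher with bortezomib in every pair and was called with the block only. Its FPKM went from 32.9 and 52.6 to 47.3 and 133 in the control line, from 47.3 and 77.7 to 121 and 255 in KO1, and from 49.1 and 56.9 to 75.9 and 83.1 in KO2. The ratio was 1.44 to 3.28 over the 6 pairs, although the control libraries of the 2 treatments overlap when suffixes are not matched. The log2 fold change over the 3 lines was 1.004 (SE 0.34, limma adjusted p 0.0885), and the block gave an adjusted p of 0.000493. Fitted apart it was 1.19 in the R2 libraries and 0.82 in the others (adjusted p 0.0113 and 0.0133). In KO1 it was 1.52 (SE 0.59, limma adjusted p 0.422, and 0.00354 with the block), in the control line 0.92 (0.622 and 0.0252) and in KO2 0.58 (0.907 and 0.13). The control value rests on single libraries: without the block it was 0.18 when the R2 bortezomib library was left out and 1.65 when the unnumbered one was, and with the block the call was lost without either R2 control library (0.51, highest adjusted p 0.332). The call in KO1 was kept in all 12 such fits. R2 libraries had the higher IER3 value in each of the 6 groups, the reverse of JUN, FOSL1 and FOSL2. IER3 (ENSG00000137331, chromosome 6, 30743199 to 30744554, minus strand) has an antisense gene, IER3-AS1, over it.

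JUN, the founding AP-1 subunit (ENSG00000177606, chromosome 1, 58780788 to 58784327, minus strand), was at like levels in the lines with vehicle and apart with bortezomib. In vehicle it was at 31.3 and 14.3 FPKM in the control line, 32.2 and 14 in KO1, and 27.6 and 13.9 in KO2. With bortezomib it was at 20.5 and 16.5 in the control line, whereas KO1 had 69.2 and 54.1 and KO2 had 46.4 and 37.6. The vehicle libraries of the 3 lines overlap, but with bortezomib both libraries of each knockout line exceed both control libraries, and KO1 exceeds KO2. JUN with bortezomib was 2.15 and 3.86 times the vehicle level in the R1 and R2 pairs of KO1 and 1.68 and 2.71 times in KO2. In the control line the ratio was 0.654 in the unnumbered pair and 1.15 in the R2 pair, which differ in direction. The log2 fold change was 1.48 in KO1 (SE 0.53, limma adjusted p 0.368, and 0.00338 with the block, SE 0.25) and 1.05 in KO2 (0.599, and 0.0154 with the block). It was -0.20 in the control line (limma adjusted p 0.957, and 0.568 with the block), and 0.78 over the 3 lines (SE 0.31, limma adjusted p 0.137, and 0.00166 with the block). The R2 libraries alone gave 1.15 (adjusted p 0.0331) and the others alone 0.41 (0.33). With the block and each library left out, JUN was called in KO1 in all 12 fits, and in KO2 it was lost without either vehicle library or the R2 bortezomib library (highest adjusted p 0.134). Of the summed JUN, JUNB and JUND FPKM, which no scaling between libraries can alter, JUN made up 24.17% to 34.65% in the 6 vehicle libraries and 30.97% and 35.93% in control bortezomib, against 53.97% and 60.09% in KO1 and 41.95% and 50.13% in KO2 with bortezomib.

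FOSL1 and FOSL2 were also called higher over the 3 lines with the block only. FOSL1 (ENSG00000175592, chromosome 11, 65892049 to 65900573, minus strand) went from 40.8 and 29.8 to 61.9 and 45.3 FPKM in the control line, from 82.3 and 25.9 to 92.2 and 71.9 in KO1, and from 53.5 and 22.9 to 50.3 and 44.6 in KO2. It was higher in 5 of 6 pairs, and each R2 pair of a knockout line showed a larger ratio (2.78 and 1.95) than its R1 pair (1.12 and 0.94). Its log2 fold change over the 3 lines was 0.60 (SE 0.34, limma adjusted p 0.298, and 0.0176 with the block), 0.99 in the R2 libraries alone (adjusted p 0.0094) and 0.22 in the other libraries alone (0.239). FOSL2 (ENSG00000075426, chromosome 2, 28392448 to 28417312, plus strand) encodes Fra-2. It went from 35.9 and 24.4 to 30.9 and 23.1 FPKM in the control line, from 24 and 15.3 to 30.6 and 22.7 in KO1, and from 21.4 and 14.2 to 27.9 and 22.5 in KO2. Both control pairs were lower with bortezomib (0.862 and 0.947 times) and all 4 knockout pairs higher (1.27 to 1.58 times). This difference between lines widens the spread in a fit of 1 replicate set alone. The log2 fold change was 0.44 in KO1 and 0.50 in KO2 (SE 0.40, limma adjusted p 0.863 and 0.85, and with the block 0.0454 and 0.0302), against -0.14 in the control line (0.961, and 0.466 with the block). Over the 3 lines it was 0.27 (SE 0.23, limma adjusted p 0.526, and 0.0209 with the block). Neither replicate set alone passed, with 0.36 in the R2 libraries (adjusted p 0.125) and 0.17 in the others (0.351). With the block, leaving out single libraries ended the FOSL2 call in KO1 in 11 of 12 fits (all but the one without the R1 vehicle library of KO1) and in KO2 in 6 of 12, those without a KO2 library or a KO1 bortezomib library. Over the 3 lines it ended without any of the R2 libraries other than KO1 vehicle, or without KO1 bortezomib R1. For FOSL1 it ended over the 3 lines without any of the 4 control libraries, KO1 bortezomib R2 or KO2 vehicle R2 (highest adjusted p 0.0642). FLJ31356 lies antisense to FOSL2 and AC104695.3 within it on the same strand.

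JUNB moved in opposite directions in the replicate sets, and JUND was called lower in 1 of them. JUNB (ENSG00000171223, chromosome 19, 12791496 to 12793315, plus strand) was at 40.5, 25.8 and 32.5 FPKM in the unnumbered or R1 vehicle libraries of the control line, KO1 and KO2, and at 21.6, 13.8 and 17.3 with bortezomib. In the R2 libraries it was at 13.6, 10.5 and 16.4 FPKM with vehicle and 22.3, 16.1 and 20.2 with bortezomib. Each R1 or unnumbered pair fell to 0.532 to 0.535 times the vehicle level, and each R2 pair was at 1.23 to 1.64 times. Fitted apart with the line as a block, a choice made after seeing the data, the log2 fold change of JUNB was -0.87 in the 6 R1 and unnumbered libraries (SE 0.07, limma adjusted p 0.00113) and 0.51 in the 6 R2 libraries (SE 0.12, adjusted p 0.0214), where 46.6% and 38.7% of all genes were called. JUND, the Jun gene that is often least inducible, fell to 0.474 to 0.782 times in the R1 and unnumbered pairs (-0.59, SE 0.15, adjusted p 0.0255) and was at 1.07 to 1.53 times in the R2 pairs (0.30, SE 0.13, adjusted p 0.114). The difference lay in the vehicle libraries: JUNB R2 values were below their partners by 0.94 to 1.51 on the log2(FPKM + 1) scale with vehicle and above them by 0.04 to 0.21 with bortezomib. The pooled log2 fold changes, -0.18 for JUNB and -0.14 for JUND (limma adjusted p 0.787 and 0.798), therefore do not hold within the replicate sets. The R2 libraries also held the larger mitochondrial share given above, and its part in this was not tested. Low R2 vehicle values were not particular to JUNB. For JUN, R2 minus partner was -1.14 to -0.94 with vehicle and -0.35 to -0.29 with bortezomib. For FOSL1 it was -1.63 and -1.19 in KO1 and KO2 with vehicle, and -0.36 and -0.17 with bortezomib. HOOK2 overlaps JUNB on the opposite strand.

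**Figure D2:**
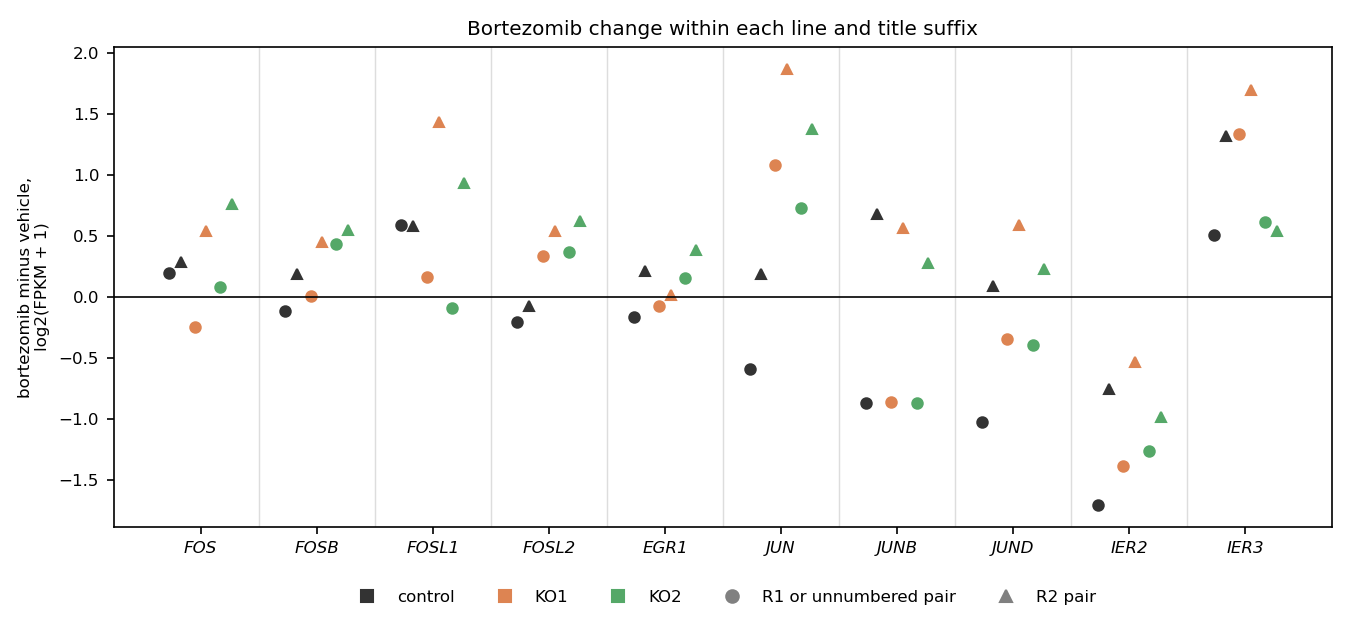
Difference between bortezomib and vehicle in log2(FPKM + 1) (vertical axis) for each gene, line (colour) and suffix (circle for the R1 or unnumbered pair, triangle for the R2 pair). All IER2 points lie between -1.71 and -0.53 and all IER3 points between 0.51 and 1.70, the JUN points of KO1 and KO2 lie above both control points, and circles and triangles of JUNB lie on opposite sides of 0.

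Promoter windows are shown for IER2, JUN and FOSL2, the members called over the 3 lines with the block that have a window, to set the fall of IER2 beside the higher values of the other two. The sequences are from RefSeq (GRCh38.p14), from 250 bases before to 50 bases from the annotated start, 5′ to 3′ on the gene's strand, and 8 of the 10 members had a window. The RefSeq start can differ from that of the deposited gene: the JUN and FOSL2 windows lie wholly within the deposited gene. Capitals mark a match to a searched motif on either strand. These were the CArG box (the SRF site), the AP-1 element TRE (TGACTCA or TGAGTCA), the CRE (TGACGTCA), the EGR site (GCGNGGGCG), the heat shock element, and, added after the windows were seen, the TATA box (TATAAA) and the AP-1 variant TGACATCA known from the JUN promoter. Each of the windows shown holds at most 1 match.
IER2 (chr19:13150161-13150460, plus strand): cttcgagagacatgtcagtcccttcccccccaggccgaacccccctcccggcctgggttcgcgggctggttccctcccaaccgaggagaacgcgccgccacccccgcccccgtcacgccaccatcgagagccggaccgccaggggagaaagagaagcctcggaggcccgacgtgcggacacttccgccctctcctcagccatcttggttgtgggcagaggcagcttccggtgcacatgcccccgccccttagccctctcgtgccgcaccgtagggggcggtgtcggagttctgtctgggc
JUN (chr1:58783998-58784297, minus strand): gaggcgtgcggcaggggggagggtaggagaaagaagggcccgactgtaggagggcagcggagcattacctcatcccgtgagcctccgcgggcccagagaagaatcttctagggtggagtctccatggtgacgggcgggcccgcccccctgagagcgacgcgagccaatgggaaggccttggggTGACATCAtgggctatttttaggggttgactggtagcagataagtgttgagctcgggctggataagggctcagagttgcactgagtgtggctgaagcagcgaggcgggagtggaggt
FOSL2 (chr2:28392608-28392907, plus strand): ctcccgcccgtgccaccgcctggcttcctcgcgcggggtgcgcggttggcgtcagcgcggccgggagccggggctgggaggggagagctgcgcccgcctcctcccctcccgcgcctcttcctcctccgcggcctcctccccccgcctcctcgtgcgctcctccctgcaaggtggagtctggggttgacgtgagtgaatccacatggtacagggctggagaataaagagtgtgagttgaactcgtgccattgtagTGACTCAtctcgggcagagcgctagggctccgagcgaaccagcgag

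The JUN window holds TGACATCA at bases -67 to -60 from the start, a match found in 2.61% of 35116 windows. The FOSL2 window holds a TRE at bases 5 to 11, found in 4.95% of windows, and the IER2 window none of the motifs searched. Among the other members, EGR1 has 2 CArG boxes (1.29% of windows hold any) and 1 EGR site (9.43%), JUND 1 CRE (1.85%), and FOS, FOSB and JUNB a TATA box each (11.53%). No member window holds a heat shock element (0.49% of windows). The matches in a window do not overlap one another.

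The knockout lines were then set against the control line in vehicle. Both comparisons use the same control libraries. No member was called without the block, where 0.213% of genes were called for KO1 and 0.23% for KO2, and none of the 7 had an unadjusted p under 0.05 in limma. FOSL2 was lower in both knockout lines, at 0.67 and 0.627 times the control level in KO1 and 0.596 and 0.585 times in KO2 by matched library (R1 against unnumbered, R2 against R2). Its log2 difference was -0.60 for KO1 (limma adjusted p 1, and 0.0683 with the block) and -0.73 for KO2 (limma adjusted p 1, and 0.0399 with the block). With the block FOSL2 was thus the only member called in KO2 (1 of 7, against 4.91% of genes), and none was called in KO1 (against 5.95%). The block ties knockout and control lines mainly through the R2 libraries, since R1 occurs only in knockout groups. When the block counted unnumbered libraries as R1, FOSL2 had a limma adjusted p of 0.0235 for KO1 and 0.0123 for KO2. With the block, the FOSL2 call in KO2 was lost in 8 of the 12 fits that leave out a library (highest adjusted p 0.39): those without a control library, a KO1 bortezomib library or a KO2 vehicle library. JUN differed by 0.004 and -0.11 (SE 0.53). Of 5 epithelial markers, 2 in KO1 and 3 in KO2 were called higher in vehicle with the block, and 2 and 2 in bortezomib, and their part in the line differences was not tested.

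Under bortezomib, JUN and JUND stood apart between lines. No member was called without the block, where 0.107% of genes were called for KO1 and 0.0656% for KO2. With the block JUN alone was called in KO1 (1 of 7, against 7.54% of genes) and no member in KO2 (0 of 7, against 4.81%). By matched library JUN was 3.38 and 3.28 times the control level in KO1 and 2.27 and 2.28 times in KO2. Its log2 difference was 1.68 in KO1 (SE 0.53, limma adjusted p 0.475, and 0.0111 with the block) and 1.14 in KO2 (SE 0.53, limma adjusted p 1, and 0.0611 with the block). Counting unnumbered libraries as R1 in the block, the adjusted p was 0.00204 and 0.0192. With the block by suffix the call in KO1 was lost without the R2 bortezomib library of the control line or of KO1 (highest adjusted p 0.148), and JUN was called in KO2 when either KO1 vehicle library was left out (lowest 0.0385). JUND (ENSG00000130522, chromosome 19, 18279760 to 18281622, minus strand) was at 14.8 and 14.5 FPKM in control bortezomib, 32.1 and 30 in KO1, and 28.9 and 31.9 in KO2. All 4 knockout libraries exceed both control libraries, at 1.95 to 2.21 times by matched library, with log2 differences of 1.03 and 1.003 (SE 0.48, limma adjusted p 0.912 and 1, and with the block 0.0866 and 0.122). JUND was called in KO1 when unnumbered libraries counted as R1 (adjusted p 0.0466, and 0.0739 in KO2) and in both lines by voom with the block (0.00906 and 0.0137). In vehicle JUND was at 31.3 and 13.5 FPKM in the control line, 41.1 and 19.6 for KO1, and 38.2 and 27.1 in KO2. These groups overlap. IER3 was 2.56 and 1.91 times the control level in KO1 (log2 difference 1.13, limma adjusted p 1, and 0.123 with the block, where the difference was 0.86). IER3 was called in KO1 with unnumbered libraries as R1 (adjusted p 0.0289) and by voom with the block (0.0298). The share of all genes called in those fits is not given here. It was 1.61 and 0.624 times the control level in KO2.

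**Figure D3:**
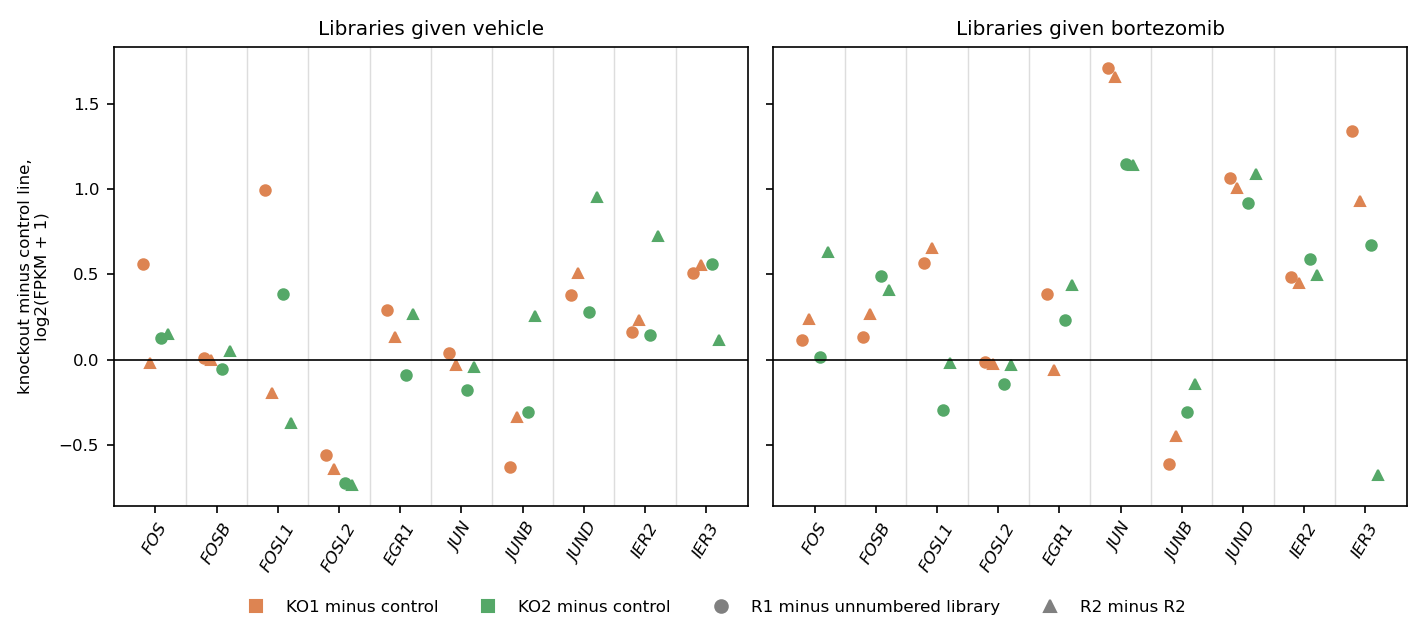
Difference between a knockout line and the control line in log2(FPKM + 1) (vertical axis, shared) by gene, for vehicle (left) and bortezomib (right), with circles for R1 minus the unnumbered library and triangles for R2 minus R2. JUN lies between -0.175 and 0.04 with vehicle and between 1.14 and 1.71 with bortezomib, and FOSL2 between -0.74 and -0.56 with vehicle and between -0.14 and -0.02 with bortezomib.

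Whether the bortezomib response differed between a knockout line and the control line was tested as a difference of differences. No member was called in either line without or with the block. Without the block 0% of genes were called in both lines (98 genes for KO1 and 66 for KO2 had an unadjusted p under 0.05), and with it 0.041% (5 genes) for KO1 and 0% for KO2 (883 genes at an unadjusted p under 0.05). JUN had the largest difference of the 7 members, 1.68 for KO1 (SE 0.75, limma adjusted p 1, and 0.183 with the block) and 1.25 for KO2 (SE 0.75, limma adjusted p 1, and 0.438 with the block). With voom on recovered reads and the block JUN passed for KO1 (1.74, adjusted p 0.00859) and not for KO2 (1.30, adjusted p 0.111). Of the settings run, this was the one in which a member passed for the difference of the response. The share of all genes called in that setting is not given here.

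Other genes of the pathway were taken from lists. Of 26 tested genes on the list of other early response genes, 11 were called higher and 0 lower with bortezomib over the 3 lines, where 11.6% of all genes were called, and the block raised this to 16 and 6, where 54.9% of all genes were called (median log2 fold change 0.81, against -0.01 for all genes). The 11 were ATF3, PPP1R15A, GADD45A, DUSP1, MAFF, GADD45B, HBEGF, BTG2, CYR61, CTGF and NR4A1. ATF3, a stress-induced factor that can pair with Jun proteins, had the largest rise at 3.52 (SE 0.21, limma adjusted p 3.59e-05). PPP1R15A, which recruits a phosphatase to eIF2 alpha, was at 2.896 (limma adjusted p 0.000107) and the MAP kinase phosphatase DUSP1 at 2.11 (0.00371). NR4A1, an orphan nuclear receptor, had the smallest rise of the 11, at 0.86 (0.0133). The largest fall among genes called with the block was that of NFKBIA, the inhibitor of NF-kappaB, at -0.50 (limma adjusted p 0.243, and 0.0255 with the block). EGR2, EGR3 and EGR4 were at 0.101 FPKM or less in every library, and ARC and NR4A3 (medians 0.202 and 0.142 FPKM) were near the level of EGR1.

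Of 8 tested AP-1 dimer partners outside the members, 5 were called higher over the 3 lines (ATF3, MAFF, MAFK, MAFG and JDP2) and 0 lower, or 6 and 0 with the block. The small Maf genes MAFF, MAFK and MAFG, whose proteins also pair with NFE2L1, had log2 fold changes of 2.00, 1.04 and 0.93 (limma adjusted p 0.000107, 0.0248 and 0.0275), and JDP2, an AP-1 repressor, one of 0.71 (0.0373). ATF3 and MAFF are on both lists. Among 22 upstream kinases and SRF or ETS factors, 1 was called, ELK3, which fell by 0.94 (limma adjusted p 0.0287), and 7 higher and 5 lower with the block, a share near that of all genes in that fit, with MAP2K2 at 0.70 and MAP2K6 at -0.98 at the ends. Of 8 regulators of EGR and AP-1, among them the corepressors NAB1 and NAB2, none was called without the block. With it BACH1, a repressor that pairs with small Maf proteins (0.71), and FBXW7, a ubiquitin ligase subunit that targets JUN (0.35), were called higher. These 2 of 8 are a smaller share than that of all genes in that fit, so they are not read as a result about this list. Of 16 tested textbook AP-1 targets, 1 was called higher, CXCL8 (2.48, limma adjusted p 0.0109), and 1 lower, PLAU (-1.69, limma adjusted p 0.0191), against 4 and 7 with the block and a median of -0.07. Without the block the share of AP-1 targets called was near that of all genes, so it is not read as a result about them.

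**Figure D4:**
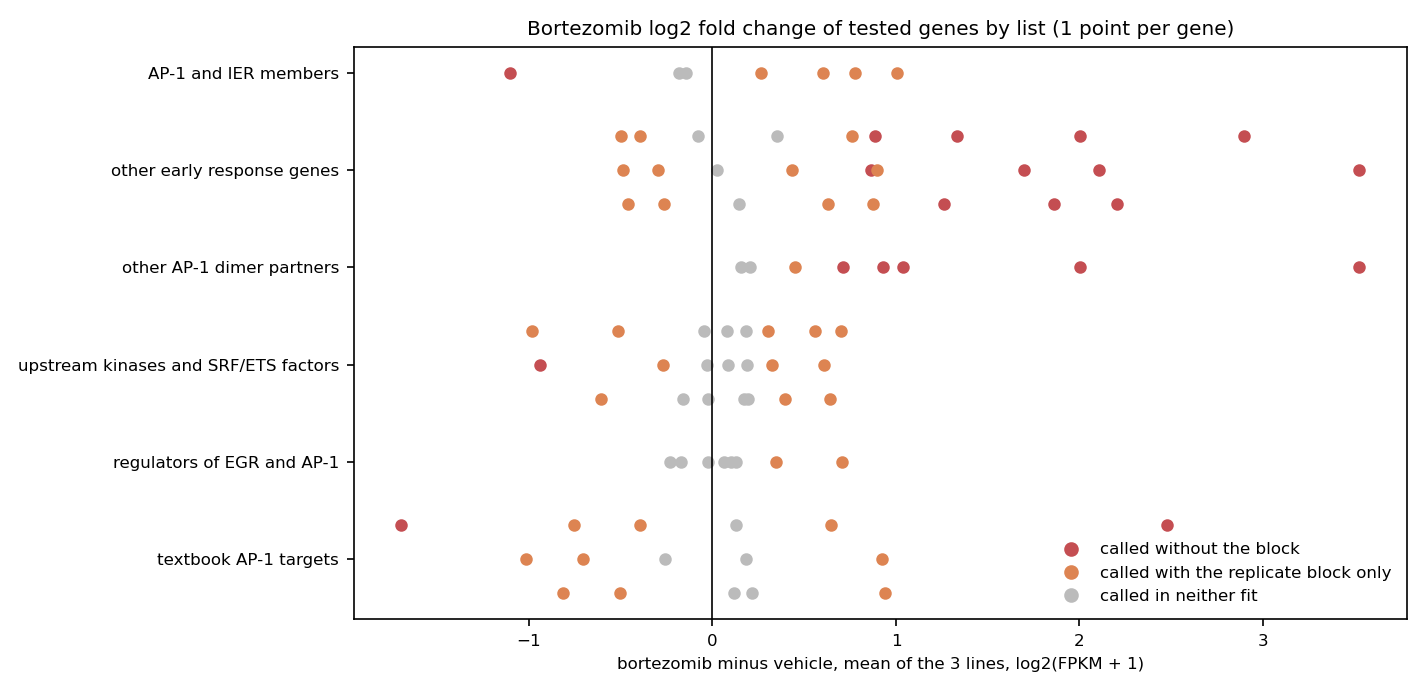
Bortezomib log2 fold change over the 3 lines (horizontal axis) of each tested gene by list, 1 point per gene with vertical spread only for legibility, coloured by whether it was called without the block, with it only, or in neither fit. The AP-1 and IER members lie between -1.11 and 1.004, and early response genes reach 3.52 for ATF3.

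In the knockout comparisons no gene of these lists was called without the block, and the shares of all genes called in each were given with the members above. With it, and with fold changes from the fit with the block, 1 early response gene was higher and 5 lower in KO1 vehicle (2 and 5 in KO2), the largest fall in each being DUSP1 in KO1 (-2.07, limma adjusted p 0.00109) and the matricellular gene CYR61 in KO2 (-1.82, limma adjusted p 0.00389). The largest rises were TRIB1 in KO1 (1.01) and KLF4 in KO2 (1.23). Under bortezomib, 5 were higher and 2 lower in KO1 and 4 and 1 in KO2, with ATF3 the largest rise in both (1.71 and 1.63, limma adjusted p 0.00249 and 0.00453). The largest falls were CTGF in KO1 (-1.54) and HBEGF in KO2 (-0.86). Of the 8 tested AP-1 dimer partners, 3 in KO1 and 2 in KO2 were higher under bortezomib with the block. None was lower, and none was called in vehicle. The shares of all genes called under bortezomib were 7.54% for KO1 and 4.81% for KO2. That list shares ATF3 and MAFF with the early response genes. No upstream kinase, SRF or ETS factor or regulator of EGR and AP-1 was called. For the AP-1 targets the counts with the block were 0 higher and 4 lower in KO1 vehicle and 0 and 2 in KO2, and 4 and 2 in KO1 bortezomib and 1 and 0 in KO2. Their median log2 fold change in the fit without the block was 0.464 in KO1 vehicle, against 0.016 for all genes. It was -0.044 in KO2 vehicle (all genes 0.062), 0.579 in KO1 bortezomib (0.045) and 0.143 in KO2 bortezomib (0.046). The counts in KO1 vehicle thus do not describe the typical target.

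For each tested member the 3 genes with the most similar pattern were found by Pearson's r of log2(FPKM + 1) over the 12 libraries, after subtracting the mean of the R2 libraries and that of the others. The points share lines and treatments, so r is a description. IER2 was followed most closely, by TCF7L2 (r 0.994), WHSC1 (0.989) and NR2F2 (0.985). JUN was nearest to TGIF1 (0.963), CYTH3 (0.946) and CCT2 (0.944), and JUND to ZNF706 (0.974), ATXN7L3 (0.971) and MCRS1 (0.968). FOSL1 was nearest to CTDP1 (0.936), IRAK2 (0.936) and RAB12 (0.922), FOSL2 to SIK1 (0.931), GMPPA (0.926) and CH507-42P11.8 (0.905), JUNB to CHAF1B (0.937), GLI2 (0.914) and LDOC1L (0.912), and IER3 to SLC35C2 (0.937), CXCL8 (0.932) and ZNF124 (0.93). No member was among the 3 nearest genes of another. Between members r was highest for FOSL1 with IER3 (0.80), JUN with IER3 (0.77) and JUN with FOSL1 (0.71), and lowest for FOSL2 with IER2 (-0.56).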

How the data were processed

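The authors deposited FPKM for 58676 genes in 12 libraries, 1 column per library, with a gene length. The submitters' processing notes name CASAVA, STAR 2.5, HTSeq 0.6.1, DESeq2 and the build hg19, with no role. The coordinates of the deposited table are however those of GRCh38: all 58676 gene IDs are in GENCODE release 29 (GRCh38), 95.2% of them at the same position, the 10 members included. Strand setting and annotation are not given in the sources used here. Deposited FPKM times length gave whole reads (tolerance 0.02) for 100% of values, from which depth was taken. The floor of 3 reads covers counting error only.

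Groups came from the labels. The 10 members, the lists and the tests were chosen with earlier results of these data known. limma 3.58.1 (R 4.3.3; lmFit, contrasts.fit, eBayes with trend) was fitted on log2(FPKM + 1) across all 12 libraries, 1 mean per group, for the 12194 genes (20.8%) whose mean FPKM reached 1. Adjustment was by Benjamini-Hochberg over all tested genes and a gene was called at an adjusted p under 0.05. The log2(FPKM + 1) scale makes fold changes of low genes smaller than they are. With 2 libraries against 2 a permutation test cannot give a p under 0.333, so none was used. That fit does not pair the libraries. The fits with the replicate block do, because the R2-minus-partner differences correlated between groups in all 15 pairs of groups (r at least 0.696). The replicate block had the levels R1, R2 and unnumbered.

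Members were given with values in every library, and with a test where called with or without the block or changed by at least 1 on the log2 scale. List genes were named where called without the block or as the largest rise and fall with it, or where chosen after their values were seen (the EGR genes). Of 109 list entries 107 different genes were found. Alternatives were a pseudocount of 0.1, no filter, 2 forms of the block, voom on recovered reads, quantile normalization, leaving out mitochondrial genes and leaving out each library, without and (added after seeing the data) with the block. The model was tested on simulated data for the bortezomib comparison of the control line over 12194 genes, 200 of them changed. With the spread as measured, a log2 change of 1 was recovered for 0 of 200 genes by either fit, and a change of 3 for 149 without and 132 with the block (10 and 7 false calls). With the replicate difference added and the smaller spread of the blocked fit, which favours the block, a change of 1 was recovered for 0 without and 125 with it (0 and 12 false calls). A missing call without the block therefore says little about changes of that size. The simulated replicate difference was the same in every group. In the data it differed between vehicle and bortezomib for JUNB, JUN, JUND, IER2 and FOSL2, and for FOSL1 in the knockout lines. For JUN, R2 minus partner was -1.14 to -0.94 with vehicle and -0.35 to -0.29 with bortezomib on the log2(FPKM + 1) scale. Such a case was not simulated. Python 3.11.15, numpy 2.4.6, pandas 2.3.3, scipy 1.17.1 and matplotlib 3.10.9 were used.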

Additional observations from a re-analysis of the deposited data

Results flagged for a closer look

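FOSL2 was picked out because its pairs moved in opposite directions: bortezomib was followed by a lower value in both control pairs and by a higher value in both pairs of each knockout line. The difference of the response was 0.58 for KO1 and 0.64 for KO2 on the log2(FPKM + 1) scale (limma adjusted p 1 for each, and 0.358 and 0.484 with the replicate block), so neither passed the threshold. In vehicle FOSL2 was lower in the knockout lines (-0.74 to -0.56 by matched library on the same scale), and with bortezomib the differences were -0.14 to -0.02.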

How the results depend on the processing

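Counts below are members called of the 7 tested. The share of all genes called is given above for the fits without the block, with the block by suffix, and of each replicate set alone. Counts of the other settings have no such share beside them, so they are not read as results about the members. The replicate block by title suffix gave 2 in the control line, 4 in KO1, 3 in KO2 and 5 over the 3 lines for bortezomib (0, 0, 0 and 1 without it), 1 for KO2 in vehicle and 1 for KO1 in bortezomib (0 and 0 without it). It left the other 4 counts at 0. The replicate block that counts unnumbered libraries as R1 gave 2, 4, 3 and 5 for bortezomib, 1 for KO1 and 1 for KO2 in vehicle, and 3 and 1 in bortezomib. Voom on recovered reads with the replicate block gave 2, 5, 4 and 5, then 1 and 1 in vehicle, 3 and 2 in bortezomib, and 1 for the difference of the response in KO1. Quantile normalization gave 1 in the control line (IER2, adjusted p 0.0474). Fitted alone, the R2 libraries gave 5 over the 3 lines and the R1 and unnumbered libraries 4 (IER3 higher, IER2, JUNB and JUND lower), a choice made after seeing the data. Leaving out each of the 12 libraries without the block left 1 call over the 3 lines and 0 elsewhere. The 0 counts say little, since that fit calls few genes, and values moved: JUN in KO2 from 0.58 to 1.53, FOSL2 in KO1 from 0.13 to 0.75 and FOSL1 over the 3 lines from 0.33 to 0.88. With the block, leaving out each library gave 1 to 2 calls in the control line, 2 to 4 in KO1, 0 to 3 in KO2 and 3 to 5 over the 3 lines for bortezomib. It gave 0 in every such fit for KO1 and 0 to 1 for KO2 in vehicle, 0 to 2 and 0 to 1 in bortezomib, and 0 for both differences of the response. The 16 single results called with or without the block kept their sign in every setting run. JUNB and JUND, called in neither fit, did not: over the 3 lines JUNB was 0.51 in the R2 libraries and -0.87 in the others, and JUND 0.30 and -0.59. Depth limits FOS, FOSB and EGR1, and 2 libraries a group limit the fits without the block.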
